A study of Homo sapiens with 4 samples.

Results

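The histone lysine and arginine methylation enzymes considered here were 56 genes of the 60623 in the count tables. They were chosen by symbol: every KDM, KMT, SETD and PRMT gene with a number and at most one letter from A to E, together with EZH1, EZH2, EED, SUZ12, EHMT1, EHMT2, NSD1, NSD2, NSD3, DOT1L, SUV39H1, SUV39H2 and SETDB1, and without KDM5D. The rule uses symbols and no measured value, though it was set with earlier results of these data known. The set holds the writers and erasers of the main methyl marks. It includes EZH1, EZH2, EED and SUZ12 of the core of Polycomb repressive complex 2 (PRC2). EED and SUZ12 are scaffolds without catalytic activity.

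Histone methyltransferases move a methyl group from S-adenosylmethionine to a lysine or arginine of a histone tail, and demethylases of the JmjC family remove it with 2-oxoglutarate and oxygen, while KDM1A and KDM1B use FAD. Methylation of H3K4 marks promoters and enhancers, that of H3K36 the bodies of transcribed genes, and that of H3K9 and H3K27 repressed chromatin. H4K20 monomethylation is laid down around mitosis, and several of the genes encoding these enzymes are recurrently mutated in squamous tumours of the head and neck, among them KMT2C, KMT2D and NSD1.

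The libraries came from BICR10, an established human head and neck cancer cell line, infected with lentivirus carrying a control hairpin (shControl) or a hairpin against YEATS2 (shYEATS2), the gene of a reader of acylated histone lysines. Both conditions carry the lentiviral vector, and the study's methods give 3 days of puromycin at 1 µg/mL before harvest. There were 2 libraries per condition, made from poly(A) RNA with a stranded kit and sequenced as paired 150-base reads. The sources do not say which YEATS2 hairpin each shYEATS2 library carried, nor whether the replicates were separate infections or cultures, so the p-values measure the spread between these libraries, which may be technical.

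YEATS2 itself stood at 66.1 and 66.7 CPM (counts scaled to library size with TMM factors) in shControl and at 29.2 and 29.1 CPM in shYEATS2, so that 44% of its transcript remained (log2 fold change -1.19, SE 0.08, adjusted p = 3.6e-21, edgeR quasi-likelihood test with Benjamini-Hochberg adjustment). The shControl libraries held 47297970 and 39824898 counts on genes and the shYEATS2 libraries 24072396 and 11334133, so depth and condition cannot be told apart. The fibroblast markers listed (COL1A1, COL1A2, COL3A1, DCN, LUM and PDGFRB) summed to 7195 to 7286 CPM in shControl and to 2212 to 2349 CPM in shYEATS2, and 6 of 6 fell. Of the 8 squamous epithelial markers 5 fell and 1 rose, their sum going from 522 to 528 CPM down to 317 to 342 CPM. That sum was below the fibroblast sum in every library. Within that list the levels in shControl ran from KRT8 at 266 CPM, SFN at 130.0 CPM, KRT18 at 111 CPM and KRT5 at 15.7 CPM to KRT14 at 1.21 CPM, EPCAM at 1.01 CPM, CDH1 at 0.335 CPM and TP63 with at most 3 counts in a library. Endothelial markers summed to at most 2.21 CPM and leukocyte markers to at most 1.76 CPM, with CDH5 at no more than 1 count and CD3E at 0 in every library. In bulk RNA, fewer cells of a type and less transcript per cell cannot be told apart, and the part of these markers in the changes below was not tested.

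Most of the enzymes moved little. Of the 56 genes 53 passed the filter on low counts, and among these 12 (22.6%) were lower and 11 (20.8%) higher in shYEATS2 at an adjusted p under 0.05 (edgeR quasi-likelihood test), against 23.6% lower and 22.6% higher of all 17058 genes tested. Called in either direction were 43.4% of the enzymes and 46.2% of all genes, so the share is near that of all genes, which were not matched for length or level. The changes were small: 51 of 53 enzymes (96.2%) had a log2 fold change within 0.5 of zero, compared with 68% of all genes, and the median absolute log2 fold change was 0.18 against 0.31. The tested enzymes had a median level of 49.0 CPM, against 13.8 CPM for all tested genes. The part of level in these smaller changes was not tested. At 1.5-fold or more, no enzyme fell and 1 rose, KMT5A, where 8.45% of all genes fell and 10.5% rose. The median log2 fold change was -0.09 for the enzymes, with quartiles of -0.20 and 0.13, and -0.01 for all genes.

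The count of calls depended on scaling, tool and library. Scaling by library totals alone moved the median of all genes from -0.01 to 0.13 on the log2 scale and gave 3 enzymes lower and 20 higher, against 15% and 31.9% of all genes. DESeq2 called 5 enzymes lower and 7 higher, or 9.43% and 13.2%, beside 16.5% and 13.9% of all genes. Fewer enzymes were called when either shControl library was left out. The share of all genes called in those fits was not determined. No call turned to the other direction under any of 15 alternative fits. In all of them 5 calls passed: KMT2C and NSD1 lower, and KMT5A, KMT2D and SETD3 higher. The share of all genes passing in every fit was not determined. The plot of log2 fold changes by role shows how the calls were spread over the marks.

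**Figure D1:**
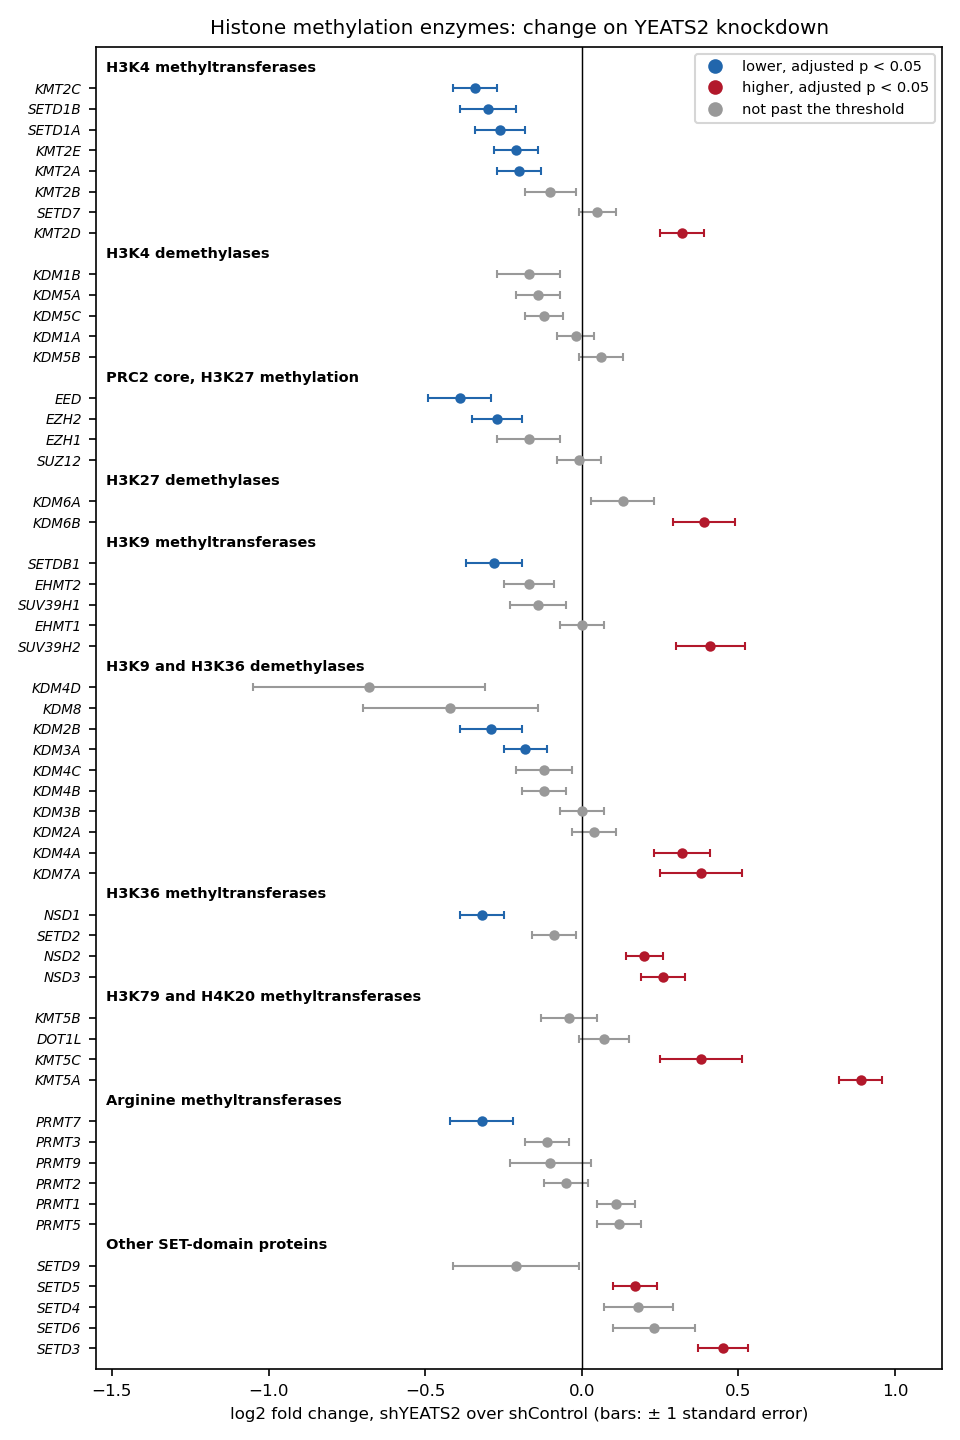
Log2 fold change of shYEATS2 over shControl for the 53 enzymes tested, grouped by the mark they act on; bars are 1 standard error to each side and colours give the edgeR call at an adjusted p under 0.05. Of the H3K4 methyltransferases 5 of 8 lie to the left of zero in blue, no H3K4 demethylase is coloured, and KMT5A at 0.89 stands apart on the right.

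KMT5A (ENSG00000183955, GRCh38 chromosome 12, 123384132 to 123409353, plus strand) encodes the enzyme that monomethylates H4K20, a protein that is destroyed during DNA replication through PCNA and accumulates toward mitosis. Its level was 36 and 37.6 CPM in shControl and 67.9 and 68.3 CPM in shYEATS2. The conditions did not overlap, and the gap was far wider than the spread within either pair. KMT5A rose 1.85-fold (log2 fold change 0.89, SE 0.07, adjusted p = 1.3e-16, edgeR quasi-likelihood test), with log2 estimates between 0.84 and 1.02 over the alternative fits. Its pseudogene KMT5AP1 held 0.481% of the counts of the pair, with 3 to 11 counts in a library. Among 6 proliferation markers the mitotic genes AURKA (0.88), CCNB1 (0.50) and TOP2A (0.18) rose on the log2 scale, PCNA (-0.72) and MCM2 (-0.81), which act in replication, fell, and MKI67 stood at -0.13 without passing; the part of cell cycle phase in the rise of KMT5A was not tested.

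The other H4K20 enzymes add di- and trimethyl groups. KMT5C had 8.16 and 7.09 CPM in shControl and 9.71 and 10.4 CPM in shYEATS2 and rose by log2 0.38 (SE 0.13, adjusted p = 0.015, edgeR quasi-likelihood test), a call lost with DESeq2, with no filter and without shControl replicate 2. KMT5B, its paralog, was at -0.04 with an interval of 2 SE to each side from -0.22 to 0.15. DOT1L, the H3K79 methyltransferase, was at 0.07 (SE 0.08). The group of 4 thus held 2 higher and 0 lower genes, with a median of 0.23, beside 22.6% higher and 23.6% lower of all genes tested.

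The promoters of KMT5A and SUV39H2 are shown because both genes rose, KMT5A the most of all the enzymes, and because their windows hold matches to the cell cycle homology region (CHR), an element known from genes expressed toward mitosis. Each window runs from 250 bases before to 50 bases from the RefSeq transcription start (GRCh38.p14), is written 5′ to 3′ on the strand of the gene, and carries in capitals the matches, on either strand, to the CCAAT box (CCAAT) and to the CHR (TTTGAA or TTTCGAA). The letters were searched after the changes had been seen. SETD3, which rose more than SUV39H2 (log2 0.45 against 0.41), is not shown.
KMT5A, chr12:123383882-123384181, plus strand: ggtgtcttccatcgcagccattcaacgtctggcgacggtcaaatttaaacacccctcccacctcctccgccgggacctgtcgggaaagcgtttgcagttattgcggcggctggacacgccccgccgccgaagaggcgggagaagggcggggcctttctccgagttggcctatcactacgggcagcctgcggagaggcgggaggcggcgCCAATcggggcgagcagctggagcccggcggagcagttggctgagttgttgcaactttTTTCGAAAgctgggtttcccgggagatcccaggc
SUV39H2, chr10:14878616-14878915, plus strand: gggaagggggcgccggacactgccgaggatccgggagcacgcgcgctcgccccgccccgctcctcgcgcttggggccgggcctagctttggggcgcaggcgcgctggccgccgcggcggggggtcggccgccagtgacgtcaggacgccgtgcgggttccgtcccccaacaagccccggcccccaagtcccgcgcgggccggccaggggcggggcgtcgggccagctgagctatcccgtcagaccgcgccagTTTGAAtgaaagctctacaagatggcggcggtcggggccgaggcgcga
In KMT5A the CCAAT box began 42 bases before the start, and TTTCGAA began 16 bases after it, overlapping its own match on the other strand. In SUV39H2 TTTGAA began 2 bases after the start, and CCAAT had no match. A CHR match stood in 3 of 10 windows of enzymes that rose, 0 of 11 that fell and 3 of 29 that did not pass, and in 15.9% of 27305 gene promoters of the same length. CCAAT stood in 6 of 10, 4 of 11 and 8 of 29, against 35.7% of all promoters. The set of all promoters was not limited to the genes tested here. KMT5A and SUV39H2, chosen for their matches, are among the 3 with a CHR, so that count does not stand apart from the choice. These are matches of letters only, and their part in the changes was not tested.

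The H3K4 methyltransferases held the most calls. Of 8 genes, 5 were lower, 1 higher and 2 did not pass, with a median log2 fold change of -0.20, where 23.6% of all genes tested were lower and 22.6% higher. KMT2C (-0.34), SETD1B (-0.30), SETD1A (-0.26), KMT2E (-0.21) and KMT2A (-0.20) fell. KMT2C and KMT2D are the enzymes of the enhancer complexes, SETD1A and SETD1B those of the SET1 complexes at promoters, KMT2A is the MLL1 enzyme, and KMT2E carries a SET domain but is not known as an active methyltransferase. KMT2B was at -0.10 and SETD7, which monomethylates H3K4 and non-histone proteins, at 0.05, neither past the threshold. With DESeq2 2 of the falls held, and with library totals alone 1 did. KMT2A shares 18.3% of its exonic bases on the same strand with a second annotated gene, ENSG00000285827. The 5 H3K4 demethylases (KDM1A, KDM1B, KDM5A, KDM5B and KDM5C) had no call with log2 fold changes from -0.17 to 0.06.

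KMT2C and KMT2D, close paralogs that serve in the same kind of complex, moved in opposite directions. KMT2C (ENSG00000055609, chromosome 7, 152134922 to 152436644, minus strand) had 95.5 and 102 CPM in shControl and 78.2 and 77.6 CPM in shYEATS2 (SE 0.07, adjusted p = 2.0e-05, edgeR quasi-likelihood test). KMT2D (ENSG00000167548, chromosome 12, 49018975 to 49060794, minus strand) had 91.4 and 84.4 CPM in shControl and 115 and 104 CPM in shYEATS2, a rise of log2 0.32 (SE 0.07, adjusted p = 4.4e-05, edgeR quasi-likelihood test). For both genes the conditions did not overlap. The count of KMT2C over that of KMT2D within a library was 1.04 and 1.20 in shControl and 0.680 and 0.746 in shYEATS2, a log2 change of -0.65 that no scaling between libraries touches. The promoters of the pair are shown, in the same frame as above, because the genes moved apart.
KMT2C, chr7:152435954-152436253, minus strand: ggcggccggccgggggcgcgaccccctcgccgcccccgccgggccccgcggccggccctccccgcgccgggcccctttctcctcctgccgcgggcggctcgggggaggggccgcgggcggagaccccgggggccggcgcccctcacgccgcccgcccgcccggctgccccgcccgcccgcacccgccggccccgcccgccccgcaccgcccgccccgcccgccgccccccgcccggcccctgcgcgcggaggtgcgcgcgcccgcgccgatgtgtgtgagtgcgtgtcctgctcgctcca
KMT2D, chr12:49060745-49061044, minus strand: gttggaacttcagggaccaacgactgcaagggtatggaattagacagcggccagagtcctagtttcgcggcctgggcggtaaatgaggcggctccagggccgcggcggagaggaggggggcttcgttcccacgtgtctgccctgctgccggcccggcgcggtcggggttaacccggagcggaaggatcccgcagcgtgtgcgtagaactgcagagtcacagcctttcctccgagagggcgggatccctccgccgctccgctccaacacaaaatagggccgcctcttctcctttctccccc
Neither window holds a CCAAT or CHR match, so nothing is in capitals. The GC box (GGGCGG, either strand) matched 15 times in KMT2C and 2 times in KMT2D. It occurred in 8 of 10 windows of enzymes that rose and 8 of 11 that fell. It stood in 75% of all 52 windows of enzymes and in 44.6% of all promoters, which include genes not tested here.

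The H3K27 enzymes bear on a residue that the study is concerned with. EZH2 (ENSG00000106462, chromosome 7, 148807257 to 148884321, minus strand), the main catalytic subunit of PRC2, stood at 50.7 and 55.0 CPM in shControl and 43.8 and 43.6 CPM in shYEATS2 and fell to 82.7% (log2 fold change -0.27, SE 0.08, adjusted p = 0.002, edgeR quasi-likelihood test). EED (ENSG00000074266, chromosome 11, 86201212 to 86278813, plus strand), which binds trimethylated H3K27 and stimulates EZH2, stood at 28.4 and 26.8 CPM against 19.3 and 23.7 CPM and fell to 76.3% (-0.39, SE 0.10, adjusted p = 5.2e-04, edgeR quasi-likelihood test). In both genes each shYEATS2 library was below each shControl library. The fall of EZH2 was lost with library totals alone and without shControl replicate 2, and that of EED without shYEATS2 replicate 1 (log2 fold change -0.24, adjusted p = 0.057, edgeR quasi-likelihood test).

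EZH1 and SUZ12 overlapped between conditions. EZH1 (ENSG00000108799, chromosome 17, 42700275 to 42745049, minus strand), the less active catalytic paralog, was at 26.5 and 24.3 CPM in shControl and 25.3 and 18.8 CPM in shYEATS2 (log2 fold change -0.17, SE 0.10, adjusted p = 0.174, edgeR quasi-likelihood test). The estimate turned on the shYEATS2 library: without shYEATS2 replicate 2 it was -0.01 (adjusted p = 0.919, edgeR quasi-likelihood test), and without shYEATS2 replicate 1 -0.45 (adjusted p = 3.3e-04, edgeR quasi-likelihood test). SUZ12 (ENSG00000178691, chromosome 17, 31937007 to 32001038, plus strand), the scaffold of the complex, was at 65.9 and 72.7 CPM against 63.7 and 74.8 CPM, a log2 fold change of -0.01 with an interval from -0.16 to 0.13. Its pseudogene SUZ12P1 took 14.0% of the summed counts of the pair, so reads may have been split between them. Of the 4 genes EZH1, EZH2, EED and SUZ12 2 were lower, with a median of -0.22, where 23.6% of all genes tested were lower. The subunits RBBP4 (-0.49) and RBBP7 (-0.15), also lower, were counted with the PRC2 partners below.

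The H3K27 demethylases KDM6B and KDM6A lay on the other side of zero. KDM6B (ENSG00000132510, chromosome 17, 7834217 to 7854796, plus strand), also called JMJD3, inducible by inflammatory signals in many cell types, was at 16.2 and 18.3 CPM in shControl and 24.5 and 20 CPM in shYEATS2 and rose 1.31-fold (log2 fold change 0.39, SE 0.10, adjusted p = 9.3e-04, edgeR quasi-likelihood test). Both shYEATS2 libraries were above both shControl libraries, but the rise did not pass with DESeq2 (adjusted p = 0.060), without shControl replicate 1 or without shYEATS2 replicate 1, where the log2 fold change was 0.20. KDM6A (ENSG00000147050, chromosome X, 44873188 to 45112779, plus strand), also called UTX, X-linked and part of the KMT2C and KMT2D complexes, was at 19.5 and 21.0 CPM against 22.5 and 21.6 CPM, with a log2 fold change of 0.13 and an interval from -0.06 to 0.32. With library totals alone KDM6A passed at 0.26 (adjusted p = 0.022, edgeR quasi-likelihood test). The plot of levels by library sets these 6 genes beside KMT5A.

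**Figure D2:**
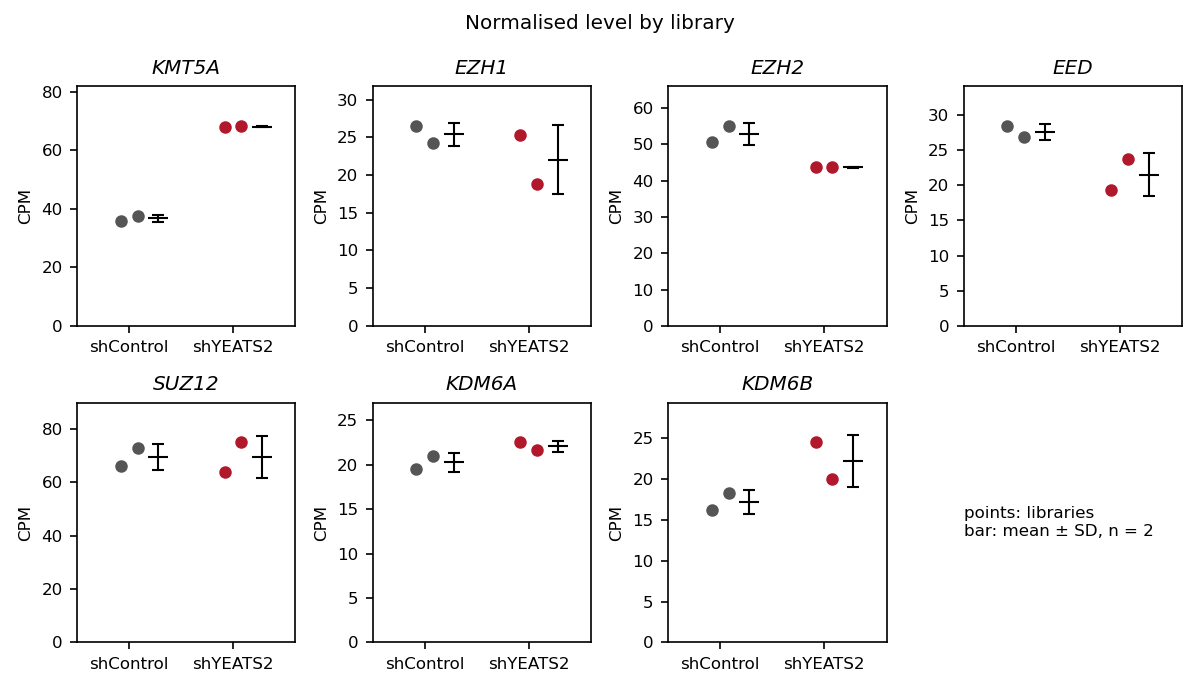
Normalised level (CPM, each axis from 0) of KMT5A, EZH1, EZH2, EED, SUZ12, KDM6A and KDM6B in each library. Points are libraries and the bar beside them the mean with 1 SD, n = 2. KMT5A goes from 36 and 37.6 CPM to 67.9 and 68.3 CPM. The other genes shown differ by no more than 1.31-fold between condition means fitted by edgeR.

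The H3K9 methyltransferases split between genes. SUV39H2 (ENSG00000152455, chromosome 10, 14878820 to 14904315, plus strand), one of the paralogs that trimethylate H3K9 in heterochromatin, had 13.4 and 16.6 CPM in shControl and 19.4 and 20.9 CPM in shYEATS2 and rose by log2 0.41 (SE 0.11, adjusted p = 8.8e-04, edgeR quasi-likelihood test), a call lost without shControl replicate 1. SETDB1, which silences retroelements with KAP1, fell by 0.28 on the log2 scale, losing the call in 4 alternatives. SETDB1 shares 12.9% of its exonic bases with CERS2 on the other strand, and whether reads were counted by strand is not given. SUV39H1 (-0.14), EHMT2 (-0.17) and EHMT1 (-0.00), of which EHMT1 and EHMT2 form the G9a-GLP dimer, did not pass. The 5 genes held 1 lower and 1 higher, with a median of -0.14, against 23.6% lower and 22.6% higher of all genes tested.

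Among the H3K9 and H3K36 demethylases 2 of 10 tested genes were lower and 2 higher, against 23.6% and 22.6% of all genes tested. KDM2B (-0.29), which also brings a variant Polycomb complex to CpG islands, and KDM3A (-0.18), a hypoxia-inducible H3K9 demethylase, fell, and each lost its call in 6 alternatives. KDM4A (0.32) and KDM7A (0.38) rose, and KDM7A also demethylates H3K27. KDM4A lost the call without shControl replicate 2. KDM7A lost it with DESeq2, without shControl replicate 2 and without shYEATS2 replicate 2. KDM4A shares 40.2% of its exonic bases on the same strand with a second annotated gene, ENSG00000284989, which is listed at 0. KDM4D (-0.68, SE 0.37) and KDM8 (-0.42, SE 0.28) had the largest estimates among genes that did not pass, and were the least expressed, KDM4D with as few as 9 counts in a library. Their intervals of 2 SE to each side reached 0.07 and 0.14.

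The H3K36 methyltransferases moved in both directions within the NSD family. NSD1 (ENSG00000165671, chromosome 5, 177131830 to 177300213, plus strand) had 101 and 101 CPM in shControl and 78.2 and 84.3 CPM in shYEATS2 and fell by 0.32 on the log2 scale (SE 0.07, adjusted p = 4.6e-05, edgeR quasi-likelihood test). NSD2 had 95.8 and 92.9 CPM in shControl and 107 and 111 CPM in shYEATS2 and rose by 0.20 (SE 0.06, adjusted p = 0.007, edgeR quasi-likelihood test). NSD3 rose by 0.26. NSD1, NSD2 and NSD3 dimethylate H3K36, and SETD2, which trimethylates it during elongation, was at -0.09 with no call. The rise of NSD2 was lost without either shControl library and with no filter, that of NSD3 without shControl replicate 1, and the fall of NSD1 in none of the 15 alternative fits, although at 1.25-fold it is under the 1.5-fold minimum.

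The arginine methyltransferases held 1 call among 6 tested, where 46.2% of all genes tested were called in either direction. PRMT7, which monomethylates arginine, fell by 0.32 on the log2 scale (SE 0.10, adjusted p = 0.005, edgeR quasi-likelihood test), and lost the call in 4 alternatives. PRMT1, the main asymmetric dimethylase, had 193 and 194 CPM in shControl and 221 and 194 CPM in shYEATS2 (log2 fold change 0.11, SE 0.06, not past the threshold). PRMT5, the main symmetric dimethylase, was at 0.12, PRMT2 at -0.05, PRMT3 at -0.11 and PRMT9 at -0.10. PRMT5 shares 28.2% of its exonic bases with PRMT5-AS1 on the other strand, and PRMT7 13.9% with SMPD3. The strand setting of the counting is not given in the sources used here. PRMT6, PRMT8 and the demethylase gene KDM4E are listed at 0 in all 4 libraries, where 3 counts would be 0.0634 to 0.265 CPM. A value of 0 here need not mean that a gene was silent: many cell lines express PRMT6, and whether annotation or counting set its 0 was not tested.

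Of the other SET-domain genes 2 of 5 rose, where 22.6% of all genes tested were higher. SETD3 (ENSG00000183576, chromosome 14, 99397748 to 99480889, minus strand), which methylates a histidine of actin rather than a histone, had 37.7 and 38.3 CPM in shControl and 48.8 and 56.1 CPM in shYEATS2 and rose 1.37-fold (log2 fold change 0.45, SE 0.08, adjusted p = 1.6e-06, edgeR quasi-likelihood test). SETD5 rose by log2 0.17, a call lost in 5 alternatives. SETD4 (0.18), SETD6 (0.23) and SETD9 (-0.21) did not pass. Over the set as a whole, the 25 lysine methyltransferase and PRC2 core genes had 9 lower, 6 higher and a median of -0.10, and the 17 lysine demethylases 2 lower, 3 higher and a median of -0.12. Of all genes tested 23.6% were lower and 22.6% higher, with a median of -0.01.

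Paralogs were then set against each other within each library, as count ratios in 18 pairs. They are given as a description, since permuting 2 libraries against 2 exactly allows no p under 0.333 (two-sided). In 13 pairs (72.2%) the conditions did not overlap, 6 with the ratio higher in shYEATS2 and 7 lower, which is close to the 71.6% of single genes whose libraries did not overlap, 36.3% below and 35.3% above. Of the single enzymes 25 lay below, 15 above and 13 overlapped. Besides KMT2C over KMT2D, the largest log2 changes were those of SUV39H1 over SUV39H2 (-0.56), NSD1 over NSD2 (-0.52), KDM4A over KDM4B (0.45), KDM4A over KDM4C (0.45), KMT5B over KMT5C (-0.43) and KDM2A over KDM2B (0.37).

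SUV39H1 over SUV39H2 went from 1.72 and 1.44 in shControl to 1.07 and 1.06 in shYEATS2; SUV39H1 shares 21.2% of its exonic bases with a gene on the other strand, so the unknown strand setting bears on this ratio too. NSD1 over NSD2 went from 1.06 and 1.09 to 0.733 and 0.761, a gap 10.07 times the larger within-condition difference. KDM2A over KDM2B went from 5.35 and 5.25 to 6.37 and 7.32. In these pairs the shift came with an opposite sign of the estimates of the partners, a call being made for both in NSD1 and NSD2 alone. EZH2 over EZH1 overlapped, at 1.91 and 2.27 in shControl and 1.73 and 2.32 in shYEATS2, and KDM6B over KDM6A went from 0.834 and 0.873 to 1.09 and 0.929. The pairs were chosen for kinship, and each enzyme may sit in more than 1 of them.

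**Figure D3:**
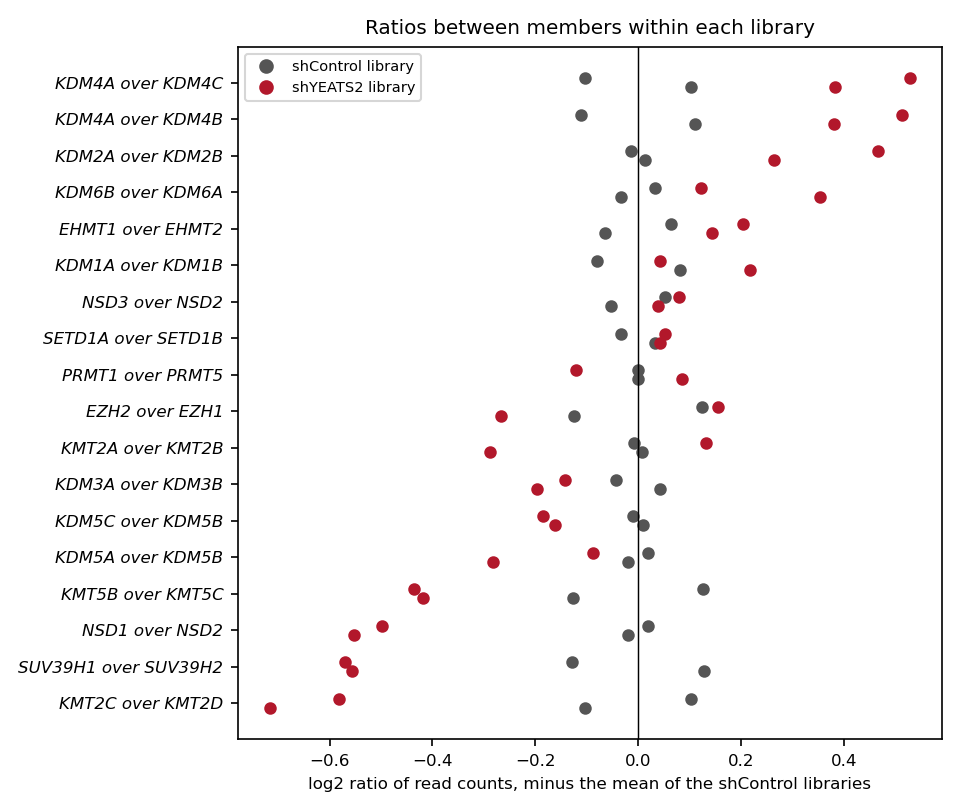
Log2 ratio of read counts of 18 paralog pairs in each library, minus the mean of the shControl libraries; grey points are shControl and red points shYEATS2. In KMT2C over KMT2D, SUV39H1 over SUV39H2 and NSD1 over NSD2 both red points lie to the left of both grey points, and in KDM4A over KDM4B to the right, while EZH2 over EZH1 overlaps.

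Levels of different enzymes were compared as CPM per kilobase of exon. PRMT1 was highest in shControl at 40.3 CPM per kb, followed by SETD7 at 15.7, PRMT5 at 14.3 and PRMT3 at 14.0. PRMT5 and PRMT3 lie too close to be ordered, and of these 4 genes PRMT1 and SETD7 kept their ranks, the first and the second, when length was taken from the longest transcript instead. KMT5A had 8.73 CPM per kb in shControl, rank 9 of the enzymes, and 16.2 in shYEATS2, rank 3. At the low end stood KDM8 at 0.518 and KDM4D at 0.441 CPM per kb. The tested enzymes were longer than most genes, with a median exonic length of 9378 bases against 4594, and 28 of 53 were of at least 8376 bases, as were 3398 of all tested genes, where the median log2 fold change was -0.09 for the enzymes and -0.02 for all genes. Of those 3398 genes 29.1% were lower and 25.5% higher. Of the shortest tested genes (62 to 2047 bases), with 0 enzymes among them, 14.9% were lower and 16.8% higher. Over the 53 enzymes the log2 fold change correlated with log2 length at r = -0.08, with GC content at 0.03 and with log2 mean CPM at 0.21, values that share the same 4 libraries.

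**Figure D4:**
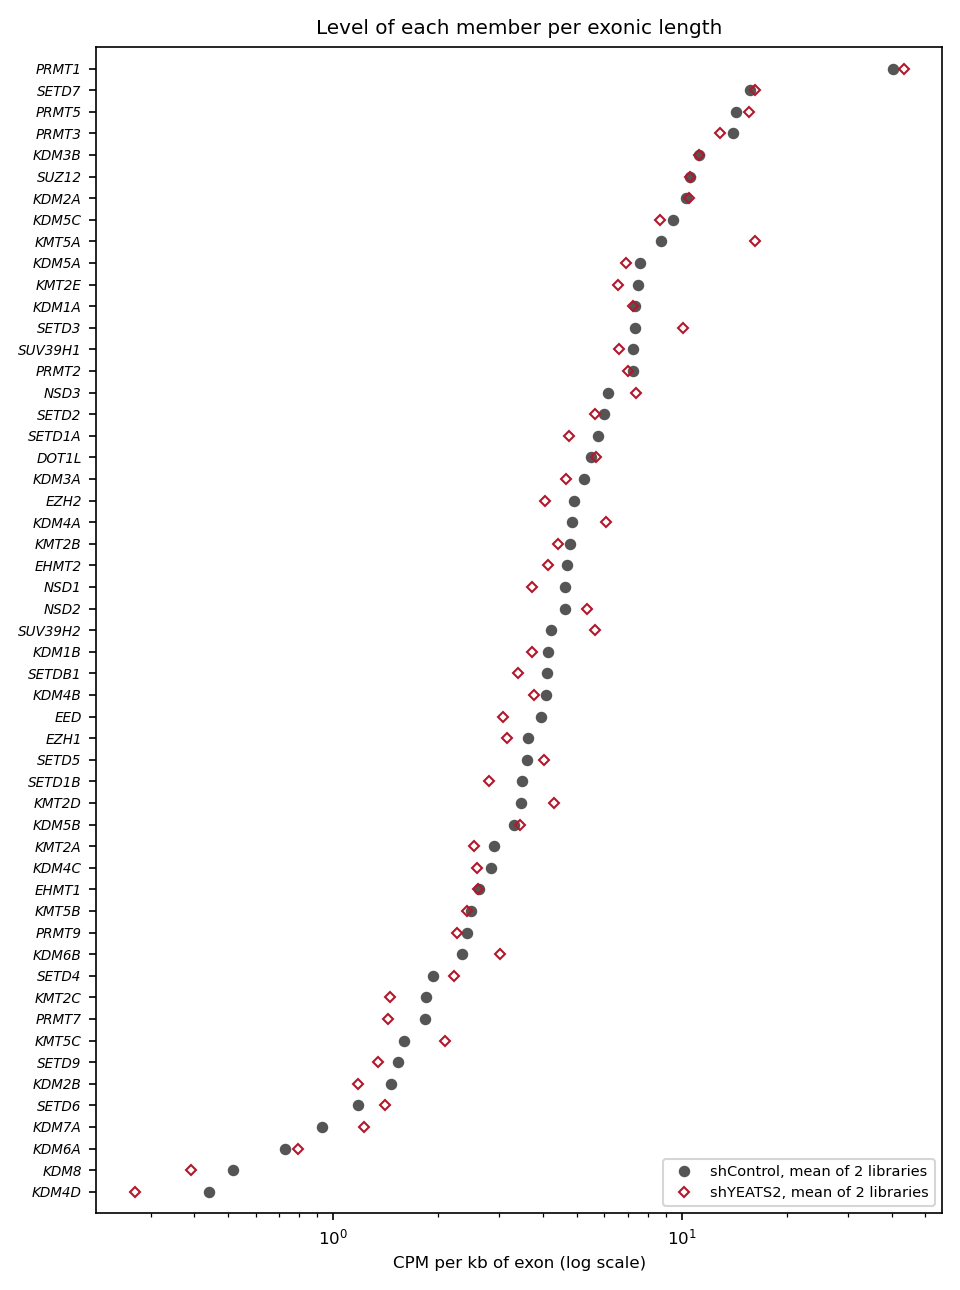
Level of the 53 tested enzymes per kilobase of exon (CPM per kb, log scale), ordered by shControl; filled points are the mean of 2 shControl libraries and open diamonds that of 2 shYEATS2 libraries. PRMT1 leads at 40.3, KDM4D is lowest at 0.441, and KMT5A shows the widest step to the right, from 8.73 to 16.2.

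Genes that work with these enzymes moved in a like mix of directions. Of 13 partners of the MLL and SET1 complexes 6 were lower and 2 higher, with a median of -0.15 (23.6% and 22.6% of all genes tested, median -0.01), CXXC1, the CpG-binding subunit of the SET1 complexes, falling most (-0.52) and RBBP5, a subunit shared by all these complexes, rising most (0.25). With library totals alone the counts were 3 lower and 5 higher. That scaling gave 15% lower and 31.9% higher of all genes tested, which holds for each list below. Of 8 tested partners of PRC2 3 were lower and 2 higher (median 0.05), led by the histone chaperone RBBP4 (-0.49) and by PHF19 (0.33), and with library totals alone 1 was lower and 4 higher. Of 21 further methylation enzymes outside the symbol rule 19 were tested, with 3 lower, 6 higher and a median of -0.03, and 1 lower and 8 higher with library totals alone. Among those of at least 10 CPM PRDM2 (-0.16) fell most and MECOM (0.63) rose most. The 6 partners of arginine methyltransferases had 2 lower and 2 higher (median 0.02), with COPRS at -0.22 and RIOK1 at 0.33, both PRMT5 partners. Library totals alone gave 0 lower and 3 higher. DESeq2 gave 1 lower and 0 higher, beside 16.5% and 13.9% of all genes.

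The supply of methyl groups and co-substrates had 5 of 11 tested genes lower and 3 higher, with a median of -0.21, beside the same 23.6% and 22.6% of all genes. With library totals alone 4 were lower and 4 higher, beside 15% and 31.9% of all genes. With DESeq2 4 were lower and 2 higher, beside 16.5% and 13.9% of all genes. IDH1, the cytosolic and peroxisomal enzyme that makes 2-oxoglutarate, rose by log2 0.66 (SE 0.07, adjusted p = 4.7e-13, edgeR quasi-likelihood test), from 67.8 and 75.6 CPM to 109.6 and 118 CPM. IDH2, its mitochondrial counterpart, fell by 0.65 on the log2 scale (SE 0.08, adjusted p = 7.2e-11, edgeR quasi-likelihood test), from 66.2 and 71.2 CPM to 46.8 and 39.8 CPM. MAT2A, which makes S-adenosylmethionine, rose (0.48) and AHCY, which clears the product S-adenosylhomocysteine, fell (-0.44). The other calls were AHCYL1 (-0.57), NNMT (-0.43) and D2HGDH (-0.30), lower, and MTAP (0.19), higher. The genes beyond IDH1 and IDH2 were named after their values had been seen. The changes of IDH1 and IDH2 were larger in size than those of 51 of the 53 enzymes.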

How the data were processed

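RNA-seq was analysed in 4 libraries of BICR10 cells, 2 shControl and 2 shYEATS2, grouped by the treatment in the sample labels. The deposited values were raw read counts per gene, for which the authors' processing notes name FastQC, STAR, HTSeq and GRCh38; their versions, the annotation release and whether reads were counted by strand are not given in the sources used here. HTSeq's summary rows (reads outside genes, ambiguous or not unique, 15.3% to 16.5% of the reads in the count tables) were left out. Identifiers of 60295 genes, and of all 56 enzymes, were found in GENCODE 44, which gave positions and the exonic length used for levels per kilobase. Promoter sequences were those of RefSeq (GRCh38.p14), held for 52 of the enzymes.

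Genes were filtered with filterByExpr, scaled by TMM and tested with edgeR 4.0.16 (R 4.3.3), a robust quasi-likelihood fit with Benjamini-Hochberg adjustment over all 17058 genes and a threshold of 0.05. A standard error is the log2 fold change divided by the root of the F statistic, intervals span 2 SE to each side, and levels are CPM with TMM. The scripts were tested on simulated data in which far fewer genes changed than were called here. That test does not bear on how the calls depend on scaling. DESeq2 1.42.0, limma 3.58.1 (voom), the likelihood ratio test, other scalings and filters, a replicate block, thinned counts, offsets for length and GC content, a stricter threshold and a fold minimum, and each library left out served as alternatives. With a library left out its condition has 1 library, which is assumed to vary like the other pair. Length from the longest transcript was an alternative chosen after seeing the data.

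Full values were given for enzymes past the threshold and changed at least 1.5-fold without overlap (at most 12 in each direction). They were also given for EZH1, EZH2, EED, SUZ12, KDM6A and KDM6B. Further values per library (KMT5C, KMT2C, KMT2D, SUV39H2, NSD1, NSD2, PRMT1 and SETD3), the opposing paralogs singled out and the motifs were chosen after the values were seen. Of each partner list the largest rise and fall past the threshold at 10 CPM or more were named, and of the supply list every call. The members and lists were chosen with earlier results of these data known. The correlation of log2 CPM was 0.994 within shControl, 0.989 within shYEATS2 and no higher than 0.972 across conditions, and replicates differed by more than counting noise (chi-square per degree of freedom 5.95 and 5.39).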

Additional observations from a re-analysis of the deposited data

How the results depend on the processing

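Under 11 of the 15 alternative fits at least 18 of the 23 calls among the enzymes were kept. The counts lower and higher were 3 and 20 with library totals alone, 5 and 7 with DESeq2, and 0 and 1 with a 1.5-fold minimum added, against 12 and 11. With 1 library left out they ranged from 5 to 12 lower and from 6 to 12 higher, the lowest values coming without either shControl library (5 and 6 without replicate 1, 6 and 6 without replicate 2), and the median log2 fold change of the enzymes ranged from -0.10 to -0.06. That median was 0.04 with library totals alone, -0.14 with no filter and -0.04 with thinned counts. SUZ12, near zero throughout, changed sign with library totals alone (0.12), with thinned counts (0.01), without shControl replicate 2 (0.05) and without shYEATS2 replicate 1 (0.10), within a range of -0.12 to 0.10 when 1 library was left out. YEATS2 stayed at -1.20 to -1.19 when a library was left out. The cause of these shifts was not tested, except that leaving out a library removes samples and DESeq2 and the fold minimum change the call rule. Libraries of the same replicate number showed no shared difference (correlation of the replicate differences between conditions -0.0184). This does not tell whether they were prepared together. The fit with a replicate block gave 12 lower, 11 higher and a median of -0.09, with 23 of 23 calls kept. The estimates of the least expressed enzymes, KDM4D and KDM8, had the widest errors (SE 0.37 and 0.28), and 22 of 23 calls were kept when all libraries were thinned to the smallest total.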
